A study of Mus musculus with 3 samples.

Results

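The neutrophil granule genes described here are 10 genes whose products fill, or are made together with, the granules of neutrophils: Mpo, Elane, Prtn3 and Ctsg of the primary granules, and Ltf, Camp, Ngp, Lcn2, S100a8 and S100a9, which are switched on later. They were found by gene name on an Agilent whole-mouse genome array with 27951 names of genes or transcripts, where Elane is listed as Ela2. They have 11 of the 41174 probes, 2 for Ltf and 1 for each of the others, and all 11 were among the 41157 probes tested, meaning that no array lacked them. No filter on low values was applied. Expression was measured in mast cell progenitors (MCps), immature mast cells grown from the low density mononuclear marrow cells of 3 WT and 3 p85α-/- mice, which lack a regulatory subunit of class IA PI3Kinase. The cells spent 7 days in IL-3 at 10 ng/mL, were sorted for both KIT and the IgE receptor, and then received SCF, the KIT ligand, at 100 ng/mL for 48 hours. Each of 3 arrays was hybridized with 1 WT culture in Cy3 and 1 p85α-/- culture in Cy5, which makes n = 3 cultures per genotype. The dyes were never exchanged, so dye and genotype cannot be told apart. The strain and age of these mice were not given in the sources used here, and because few cells were sorted, global PCR had been used to amplify their cDNA.

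Neutrophils pack their granules in a fixed order as they mature. Promyelocytes make the primary (azurophil) granules, which hold myeloperoxidase and the serine proteases neutrophil elastase, proteinase 3 and cathepsin G. The specific and gelatinase granules follow in myelocytes and later cells, with lactoferrin, the cathelicidin precursor, neutrophilic granule protein and lipocalin 2, while the calcium-binding pair S100A8 and S100A9 is stored mainly in the cytosol. Mast cells arise from the same bone marrow progenitors, keep their own proteases on serglycin, and are also known to express cathepsin G.

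The stretches of 250 bases before the transcription start of 6 of the genes are shown because the results turn on them: Mpo and Elane shared a pattern over the cultures, as did S100a8 and S100a9, while Ctsg and Elane's chromosomal neighbour Prtn3 each had another. The sequences are from RefSeq (GRCm38.p6), 5′ to 3′ on the strand of the gene, and a window was found for all 10 genes. Capitals mark each match, on either strand, to GAGGAA, a core of PU.1 sites, or to TTNNGNAA, a loose C/EBP motif. Overlapping matches would run together.
Mpo, chr11:87793534-87793783, + strand: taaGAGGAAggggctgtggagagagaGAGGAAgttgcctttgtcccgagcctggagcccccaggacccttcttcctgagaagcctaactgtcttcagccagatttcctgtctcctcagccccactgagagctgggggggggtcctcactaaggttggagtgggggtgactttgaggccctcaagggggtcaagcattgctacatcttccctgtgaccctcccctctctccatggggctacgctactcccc
Elane, chr10:79886062-79886311, + strand: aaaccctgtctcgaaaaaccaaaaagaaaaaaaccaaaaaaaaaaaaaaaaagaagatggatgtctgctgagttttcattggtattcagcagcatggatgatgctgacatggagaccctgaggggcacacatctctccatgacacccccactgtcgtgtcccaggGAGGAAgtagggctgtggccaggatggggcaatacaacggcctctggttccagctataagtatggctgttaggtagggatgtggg
Prtn3, chr10:79879417-79879666, + strand: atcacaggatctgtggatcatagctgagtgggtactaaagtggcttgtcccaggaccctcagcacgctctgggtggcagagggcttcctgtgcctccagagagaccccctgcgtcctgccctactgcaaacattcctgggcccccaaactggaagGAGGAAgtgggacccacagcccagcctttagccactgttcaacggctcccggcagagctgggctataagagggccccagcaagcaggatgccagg
Ctsg, chr14:56102575-56102824, - strand: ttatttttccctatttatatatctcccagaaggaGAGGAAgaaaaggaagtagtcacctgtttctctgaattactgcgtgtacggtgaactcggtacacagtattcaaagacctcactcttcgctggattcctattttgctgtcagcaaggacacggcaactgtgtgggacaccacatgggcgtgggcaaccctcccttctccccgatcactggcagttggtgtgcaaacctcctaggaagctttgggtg
S100a8, chr3:90668821-90669070, + strand: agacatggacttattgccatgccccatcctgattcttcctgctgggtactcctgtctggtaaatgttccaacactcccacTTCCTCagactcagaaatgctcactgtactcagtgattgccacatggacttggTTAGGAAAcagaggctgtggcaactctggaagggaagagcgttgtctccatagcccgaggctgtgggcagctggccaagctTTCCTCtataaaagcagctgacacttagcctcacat
S100a9, chr3:90695722-90695971, - strand: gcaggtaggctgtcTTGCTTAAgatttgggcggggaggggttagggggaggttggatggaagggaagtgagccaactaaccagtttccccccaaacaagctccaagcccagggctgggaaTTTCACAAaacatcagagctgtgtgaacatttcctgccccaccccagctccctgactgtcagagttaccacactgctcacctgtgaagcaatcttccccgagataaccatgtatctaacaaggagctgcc

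PU.1 and the C/EBP factors are transcription factors of the granulocyte lineage. GAGGAA was found before all 4 primary granule genes and before 3 of the 6 later genes, and 23.3% of the 32851 RefSeq promoter windows of this length hold it. TTNNGNAA was found before 0 of the 4 primary and 5 of the 6 later genes, all except Camp, against 36.8% of all windows. TGTGGT (RUNX) was found before 1 gene of each group, Ctsg and S100a9, against 14% of windows. AACNG (MYB) was found before all 10 genes, against 74.2%, and AAATC (GFI1) before 1 primary and 3 later genes, against 32.7%. These are matches of letters and not measured binding sites.

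On the arrays as a whole, the median signal of a WT channel was 71.5 to 141.2 and that of a p85α-/- channel 206.6 to 517.3, over median local backgrounds of 32.5 to 33.5 and 51. The p85α-/- culture of replicate 2 stood apart, with a median signal of 517.3 against 210.9 and 206.6 in the others and 93.8% of spots well above background against 77.6% and 77.3%. Among the WT cultures that of replicate 3 was the brightest, with a median signal of 141.2 against 76.1 and 71.5. Its share well above background was 85.3% against 72.1% and 69.4%. No spot was saturated. The part of these channels in the values of replicates 2 and 3 below was not tested. The level of a gene is given below as normalized log2 intensity, and the difference as the log2 ratio of p85α-/- over WT within an array. No probe reached an adjusted p under 0.05 (0 of 41157, or 0%) when limma tested that ratio against 0 with Benjamini-Hochberg adjustment. At an unadjusted p under 0.05 limma gave 1829 probes and the methods' t-test 1755, or 1501 as the methods' paired t-test. All 1829 (4.44%) were also past 1.5-fold, the pair of criteria used in the study, and these criteria are what "passed" means below. Of these, 62.6% were higher in p85α-/-, which became 91.1% when each array was only centred on its median ratio, a step that moved the median over all probes by 0.14. The 4 probes of Pik3r1, the disrupted gene, differed among themselves. At 1 probe every p85α-/- culture was below every WT culture, with a mean log2 ratio of −0.58 ± 0.41 (SD, n = 3), while the brightest had 0.59 ± 0.79 and the others 0.32 ± 0.18 and −0.043 ± 0.27. Directions below are those of the cultures as labeled.

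Among the 10 neutrophil granule genes, 3 passed 1.5-fold and an unadjusted p under 0.05, all of them higher in p85α-/- MCps: Ctsg, S100a8 and S100a9. Over all probes 2.78% passed in that direction and 1.66% in the other, in which 0 of the 10 genes passed. The lowest adjusted p among the 10 was 0.823 by limma's test. Lower values in p85α-/- on all 3 arrays were found for 0 of the 10 genes, against 13.3% of probes, and 0 had every p85α-/- culture below every WT culture, against 5.94%. The mean log2 ratio was above 0 for 7 genes, and for 18447 of the 41157 probes. It was below 0 for Prtn3, Ltf and Ngp, and with median centring Ngp and Lcn2 each changed sign. In pooled RNA of this kind, a larger share of cells expressing a gene and more RNA per cell cannot be told apart.

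**Figure D1:**
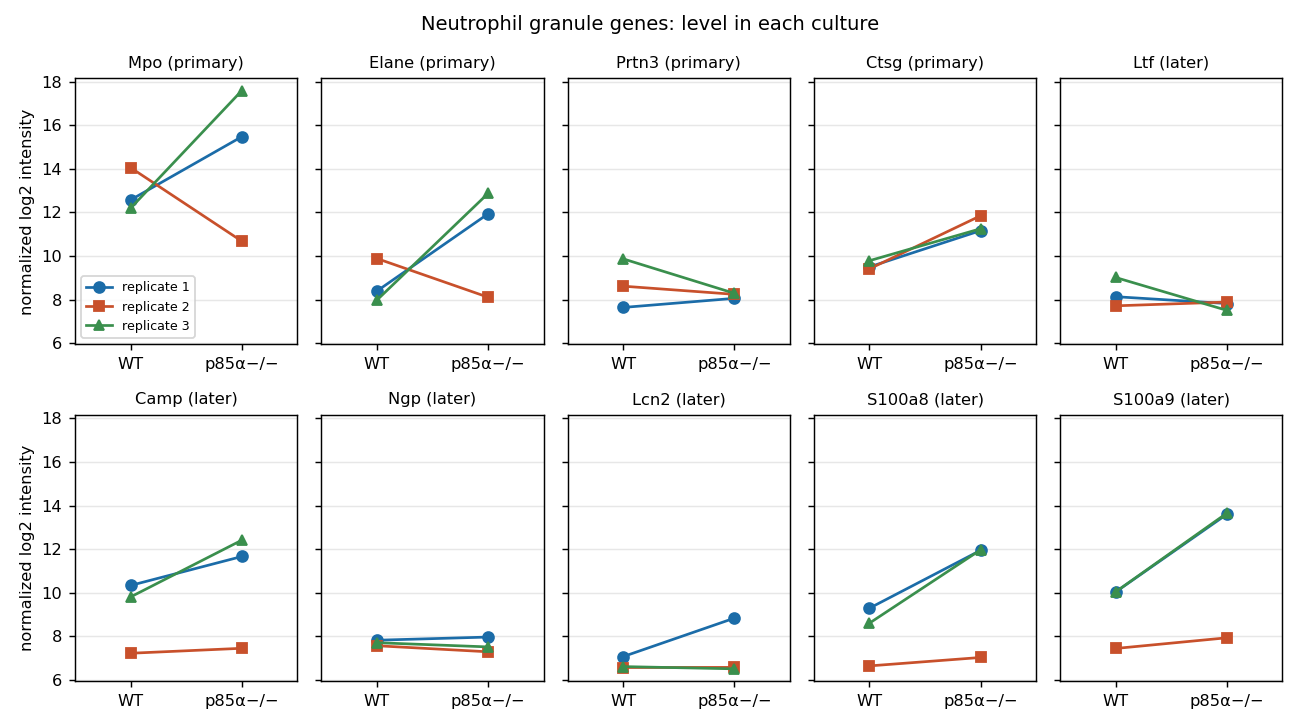
Normalized log2 intensity (vertical axis) of each neutrophil granule gene in the WT and p85α-/- cultures, with a line joining the cultures hybridized on 1 array; points are single cultures. Levels are to be compared within a panel. For Ctsg the 3 p85α-/- cultures sit between 11.17 and 11.85, above WT at 9.41 to 9.79, whereas for Mpo and Elane the line of replicate 2 slopes down and the others up.

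Ctsg encodes cathepsin G, a serine protease of primary granules that mast cells can also make. Its level was 9.5, 9.41 and 9.79 in WT replicates 1 to 3 and 11.17, 11.85 and 11.25 in p85α-/- replicates 1 to 3. Every p85α-/- culture was above every WT culture, which was the case for 4.54% of all probes. The log2 ratios of 1.67, 2.44 and 1.47 correspond to 3.17-fold, 5.41-fold and 2.76-fold. Their mean was 1.86 ± 0.51 (SD, n = 3, adjusted p = 0.823 by limma's test). Ctsg was the most even of the higher genes, and it passed both criteria with any 1 of the replicates left out.

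Mpo encodes myeloperoxidase, the enzyme that makes hypochlorous acid in neutrophils. Its raw signal was 1961, 9866 and 2361 in WT replicates 1 to 3 and 138221, 3077 and 362321 in p85α-/-. After normalization the levels were 12.58, 14.05 and 12.20 in WT and 15.48, 10.68 and 17.59 in p85α-/-. The p85α-/- values thus spanned the WT values on both sides. Replicate 2 held the highest WT and the lowest p85α-/- level. Within arrays, p85α-/- was 7.47-fold above WT on array 1 and 42.0-fold above on array 3, but WT was 10.4-fold above p85α-/- on array 2. The mean log2 ratio of 1.64 ± 4.52 (SD, n = 3) was smaller than the spread between arrays (adjusted p = 0.918 by limma's test).

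Elane, the gene of neutrophil elastase, had the same order of cultures as Mpo within each genotype. Its level was 8.39, 9.88 and 7.98 in WT and 11.94, 8.11 and 12.88 in p85α-/-. Again the p85α-/- cultures of replicates 1 and 3 were above all WT cultures, and that of replicate 2 was below 2 of them. The ratio was 11.7-fold on array 1 and 29.8-fold on array 3 in favour of p85α-/-, and 3.42-fold in favour of WT on array 2. Its mean log2 ratio was 2.22 ± 3.53 (SD, n = 3, adjusted p = 0.908 by limma's test). Without replicate 2 the mean was 4.15 for Mpo and 4.22 for Elane and both passed the criteria, whereas without replicate 3 Mpo was at −0.24 and Elane at 0.88. A ratio of at least 4-fold on arrays 1 and 3 with at least a 2-fold opposite ratio on array 2, limits set after the values of Mpo and Elane were seen, was found for 121 probes (0.294%). A ratio above 0 on arrays 1 and 3 and below 0 on array 2, whatever its size, was found for 2 of the 10 genes, Mpo and Elane, and for 14.4% of probes.

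Prtn3 encodes proteinase 3, another serine protease of the primary granules, and lies next to Elane on chromosome 10. It did not share Elane's pattern. Its level was 7.64, 8.62 and 9.87 in WT and 8.06, 8.24 and 8.29 in p85α-/-, so the p85α-/- cultures lay inside the WT range. Its mean log2 ratio was −0.51 ± 1.01 (SD, n = 3, adjusted p = 0.908 by limma's test), and array 1 had the opposite sign. Over the 6 channels, which are 3 pairs on shared arrays, Pearson's r was 0.96 between Mpo and Elane and −0.30 between Elane and Prtn3. Over the primary genes the median log2 ratio was 2.28, −1.07 and 3.18 on arrays 1 to 3, against medians between −0.014 and −0.0056 over all probes. The median of the 4 mean ratios was 1.75, against −0.049 over all probes. It was 2.75 with median centring, 2.86 without replicate 2 and 0.45 without replicate 3.

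**Figure D2:**
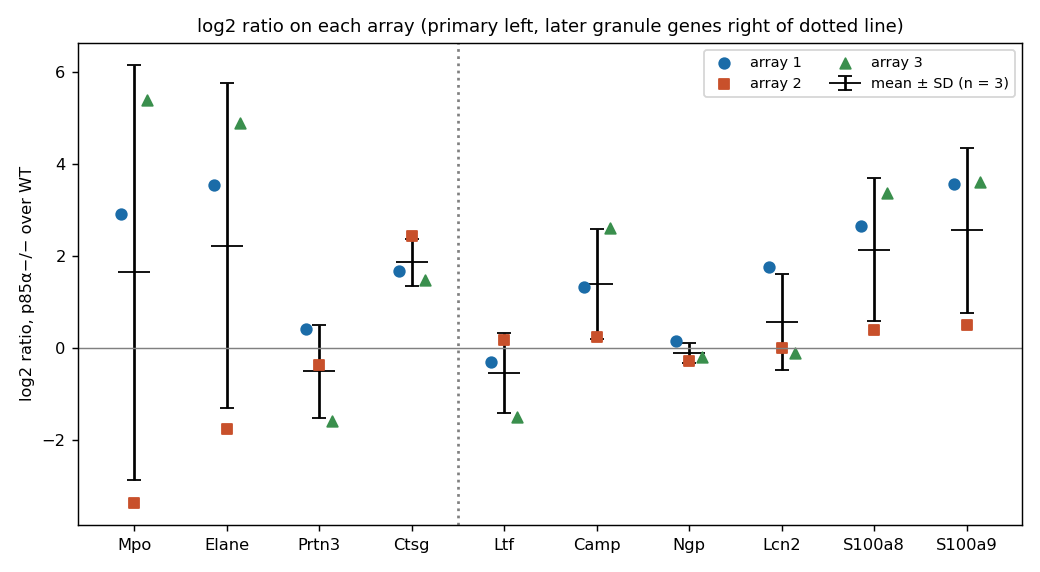
log2 ratio of p85α-/- over WT (vertical axis) for each gene on arrays 1 to 3 (coloured points), with the mean and SD over the 3 arrays in black. Ctsg has its 3 points between 1.47 and 2.44, while the points of Mpo run from −3.37 to 5.39; the means of Ngp and Lcn2 change sign with median centring.

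S100a8 and S100a9 encode the 2 chains of calprotectin, which binds calcium and zinc. For S100a9 the level was 10.04, 7.44 and 10.04 in WT and 13.60, 7.93 and 13.65 in p85α-/-. For S100a8 it was 9.29, 6.64 and 8.60 in WT and 11.94, 7.03 and 11.97 in p85α-/-. Both genes were lowest in replicate 2 in either genotype, and the p85α-/- culture of that replicate was below the WT cultures of the others. The groups therefore overlapped, although p85α-/- was above WT on each array. The ratio of S100a9 was 11.8-fold, 1.40-fold and 12.2-fold on arrays 1 to 3, with a mean log2 ratio of 2.55 ± 1.79 (SD, n = 3). That of S100a8 was 6.30-fold, 1.31-fold and 10.3-fold, with a mean of 2.14 ± 1.56. The adjusted p was 0.908 for each by limma's test. Both lost the unadjusted call without replicate 1, without replicate 3, with either form of the methods' t-test and when limma's test ignored the pairing by array (adjusted p = 0.886 for each), and S100a8 alone lost it under loess. WT was well above background at the S100a8 probe on 2 of 3 arrays. Over the 6 channels the 2 genes had a Pearson's r of 0.995.

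Camp, the gene of the cathelicidin antimicrobial peptide, followed the S100 pair. Its level was 10.34, 7.22 and 9.81 in WT and 11.66, 7.45 and 12.41 in p85α-/-. Replicate 2 was again lowest in both genotypes and p85α-/- was above WT on every array, by 2.51-fold, 1.17-fold and 6.08-fold. The mean log2 ratio of 1.39 ± 1.19 (SD, n = 3, adjusted p = 0.908 by limma's test) did not pass, but it did with median centring (2.45), with the scanner software's own log ratio (1.68) and without replicate 2 (1.97). Pearson's r over the 6 channels was 0.98 with S100a8 and 0.97 with S100a9. Higher values in p85α-/- on all 3 arrays were found for 3 of the 6 later genes and for Ctsg, and for 12.5% of all probes.

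Unlike those of Camp, the log2 ratios of Ngp, Ltf and Lcn2 were not above 0 on every array. Ngp, which encodes a cystatin-like protein of the specific granules, had levels of 7.82, 7.57 and 7.71 in WT and 7.97, 7.29 and 7.51 in p85α-/-. Replicate 2 was lowest in both genotypes, as for Camp. The genotypes overlapped, and the mean log2 ratio was −0.11 ± 0.22 (SD, n = 3, adjusted p = 0.960 by limma's test), or 0.023 with median centring. Ltf encodes the iron-binding protein lactoferrin and had levels of 8.13, 7.72 and 9.01 in WT and 7.82, 7.89 and 7.51 in p85α-/- at its brighter probe. These overlapped as well, with a mean log2 ratio of −0.55 ± 0.86 (adjusted p = 0.908). The other probe of Ltf had a mean of 0.0077 ± 0.53. The probes of Ltf differed in sign on array 1.

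Lcn2 encodes lipocalin 2, which binds bacterial siderophores. Its level was 7.07, 6.57 and 6.61 in WT and 8.83, 6.57 and 6.51 in p85α-/-. Only the p85α-/- culture of replicate 1 stood out from the others. Lcn2 was not well above background in any WT culture and was so in 2 of the 3 p85α-/- cultures. Over the arrays the mean was 0.56 ± 1.05 on the log2 scale (SD, n = 3, adjusted p = 0.908 by limma's test), or −0.021 with median centring. Over the 6 later genes the median log2 ratio was 1.55, 0.20 and 1.25 on arrays 1 to 3, and the median of the mean ratios was 0.97.

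**Figure D3:**
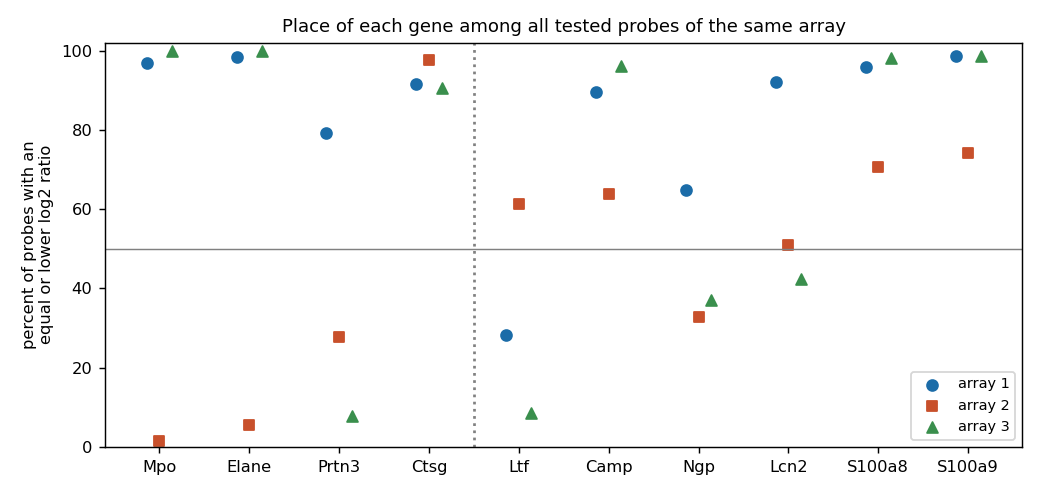
Percent of the 41157 probes of the same array with an equal or lower log2 ratio (vertical axis) for each gene on arrays 1 to 3 (coloured points). Mpo sits at 96.8% and 99.9% on arrays 1 and 3 and at 1.46% on array 2, while Ctsg stays between 90.5% and 97.5%.

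Among the p85α-/- cultures, 5 of the 10 neutrophil granule genes varied more than nearly all other probes. For Mpo the range over the 3 p85α-/- cultures was 6.91 on the log2 scale, and it was the widest of all 41157 probes after quantile normalization. The range was 5.72 for S100a9, 4.96 for Camp, 4.94 for S100a8 and 4.77 for Elane. Ranges at least this wide were found for 0.0632%, 0.394%, 0.408% and 0.581% of probes, and the median over all probes was 0.75. In the WT cultures these 5 genes ranged over 1.85 to 3.11, against a median of 0.72. Ctsg, with 0.37 in WT and 0.68 in p85α-/-, and Ngp, with 0.25 and 0.68, were below these medians in both genotypes.

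Of 32 other genes of neutrophil granules on a list, 31 had probes that were tested. Of these, 4 passed 1.5-fold and an unadjusted p under 0.05, all of them higher in p85α-/- (2.78% of all probes), and 0 passed lower (1.66%). Without replicate 2 the counts were 6 and 2. In that setting 3165 of the 41157 probes passed, 1503 of them higher, against 1829 and 1145 with all replicates. The median log2 ratio of the 31 genes was 0.36, or 0.92 with median centring, and 0.025, 0.55 and 0.17 without replicates 1, 2 and 3. Srgn encodes serglycin, the proteoglycan that holds granule proteases in mast cells and neutrophils, and averaged 1.48 ± 0.60 on the log2 scale (SD, n = 3). Serpinb1a, an inhibitor of neutrophil serine proteases, had 2.07 ± 1.23. The stefin genes Stfa1 (1.12 ± 0.34) and Stfa2 (0.87 ± 0.45) encode cysteine protease inhibitors from a cluster of close paralogs, and RefSeq now gives the accession of the Stfa1 probe the name Cstdc6. The adjusted p was 0.908 for each of the 4 by limma's test. Each of these 4 kept its call with only 1 of the 3 replicates left out: replicate 3 for Srgn and Serpinb1a, 1 for Stfa1 and 2 for Stfa2. With the software's processed signals 0 of the 31 passed, and with median centring 8. Over all probes 1322 and 2453 passed as higher in these settings, against 1145 in the main fit.

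Slpi, a secreted inhibitor of elastase and cathepsin G, and Pglyrp1, a peptidoglycan recognition protein of specific granules, were singled out after their values were seen. At its brighter probe Slpi had levels of 8.13, 13.56 and 8.64 in WT and 11.71, 8.57 and 12.12 in p85α-/-. Pglyrp1 had 10.19, 15.44 and 11.39 in WT and 14.28, 10.44 and 14.35 in p85α-/-. As for Mpo and Elane, replicate 2 was the highest WT and the lowest p85α-/- culture at these probes. The other Slpi probe did not share this order: its log2 ratios were all below 0, at −1.21, −0.67 and −0.11. The ratios averaged 0.69 ± 4.92 (SD, n = 3) on the log2 scale for Slpi and 0.68 ± 4.95 for Pglyrp1, far smaller than the spread, and the mean was below 0 for either gene without replicate 1 or without replicate 3. Without replicate 2 both passed as higher, at 3.53 and 3.52. Cd63, the gene with the highest mean of the list (2.45 ± 2.45), had the opposite order. Replicate 2 was its lowest WT culture (9.83) and its highest p85α-/- culture (15.01).

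**Figure D4:**
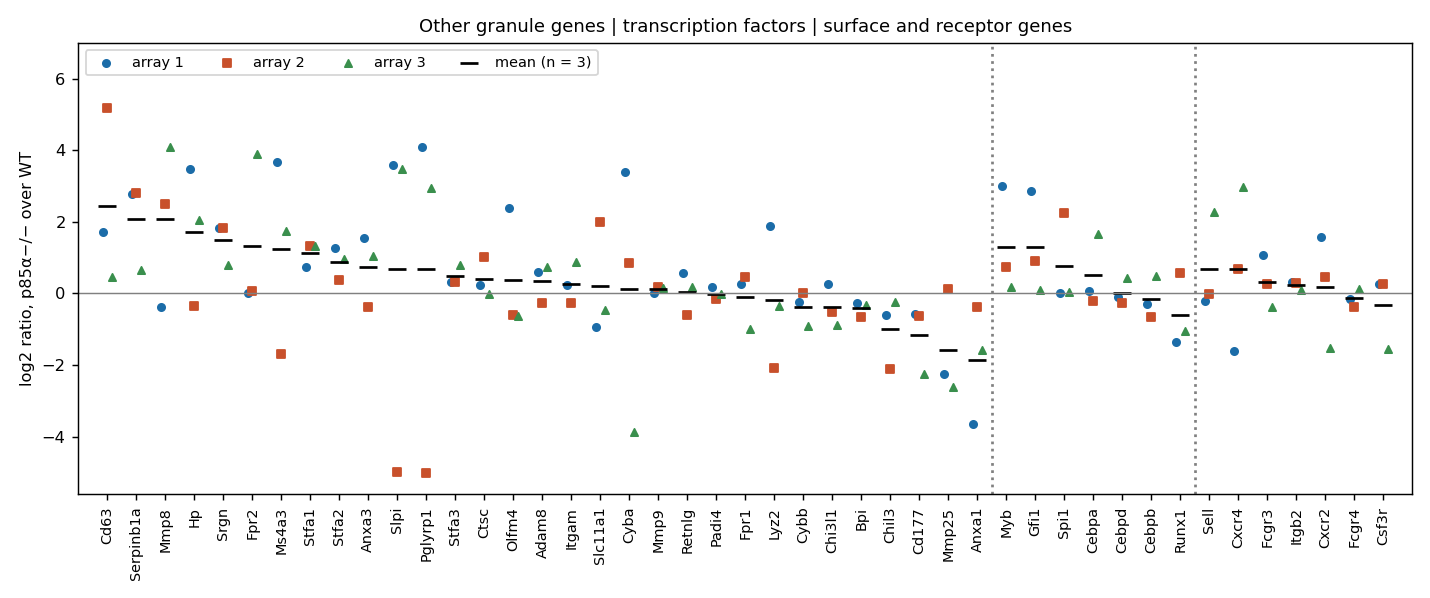
log2 ratio of p85α-/- over WT (vertical axis) for other granule genes, granulocyte transcription factors and neutrophil surface or receptor genes, with the value on each of 3 arrays as coloured points and their mean as a black bar. Serpinb1a, Srgn, Stfa1 and Stfa2 have all points above 0, while Slpi and Pglyrp1 have array 2 near −5 and the others above 2.9.

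Of 8 transcription factors of granulocytes, 7 were tested and 0 passed in either direction. Over all probes 2.78% passed as higher and 1.66% as lower, so 0 of 7 is near that share. The median log2 ratio of the 7 was 0.50. This median was −0.078 without replicate 3, 0.15 without replicate 2 and 0.98 with median centring. The brightest were Runx1, Cebpa and Myb. Runx1, which acts early in blood formation, averaged −0.60 ± 1.04 (SD, n = 3) and changed sign with median centring, but passed as lower without replicate 2. Cebpa, needed for the step to granulocyte progenitors, had 0.50 ± 1.02. Myb, a factor of immature blood cells, had 1.30 ± 1.49, with a ratio of 2.99 on array 1. None of these means was larger than its SD, and other probes of Cebpa (−0.80 ± 0.60) and Myb (0.53 ± 0.83, −0.64 ± 0.77 and −0.65 ± 0.89) differed in sign from the brightest in 1 and 2 cases.

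Of 8 surface and receptor genes of neutrophils, 7 were tested and 0 passed, which is again near the 2.78% (higher) and 1.66% (lower) of all probes. Their median log2 ratio was 0.24, which was −0.070 without replicate 1 and 0.81 with median centring, where 1 passed. Csf3r, the receptor for G-CSF, was well above background in 1 WT and 1 p85α-/- culture only, with a mean of −0.34 ± 1.05 (SD, n = 3). The brightest were Fcgr3 (0.31 ± 0.74), an IgG receptor that mast cells also carry, the chemokine receptor Cxcr2 (0.18 ± 1.57) and the integrin chain Itgb2 (0.24 ± 0.12).

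The labelled cell type was checked against 14 mast cell markers, among them Kit and the IgE receptor chains that the sort used. In WT 13 and in p85α-/- all 14 were well above background on every array, the exception being Ms4a2, the β chain of the IgE receptor, which was so on 1 WT array. Of the 14 genes 13, all except Mcpt4, had a mean log2 ratio above 0, against 18447 of the 41157 probes. Mcpt4 joined them with median centring. As higher, 4 of the 14 passed (Kit, Fcer1g, Cma1 and Il1rl1), against 2.78% of all probes. Over the 14 genes the median log2 ratio was 1.21, or 2.07 with median centring, and 1.81, 0.71 and 0.81 without replicates 1, 2 and 3. Of the list 1 gene passed by either form of the methods' t-test and 7 with median centring, where 2453 of all probes passed as higher. Cma1 lost its call without replicate 1 and without replicate 2. Without replicate 1, 5 passed as higher and Mcpt4 as lower, and without replicate 3, 10 of the 14 means were above 0. The summed normalized intensity of the list lay between 40403 and 72623 in WT and between 113227 and 183184 in p85α-/-, with no overlap. This was not particular to mast cell markers. The sums of the granulocyte transcription factors (highest WT 5168, lowest p85α-/- 5319) and of the early progenitor markers (19776 and 20451) did not overlap either. A sum also rests mostly on the brightest genes, such as Cma1, at 16.65 in p85α-/- replicate 1. The sums of the 4 primary granule genes were 7364, 18988 and 6773 in WT and 52079, 5904 and 207893 in p85α-/-, and those of the 6 later genes 3609, 918.2 and 3164 in WT and 20515, 1039 and 22778 in p85α-/-. Mpo alone made up 82.9%, 89.4% and 69.4% of the primary sum in WT and 87.5%, 27.7% and 95.1% in p85α-/-. These are shares of the intensity of different probes, whose levels cannot be compared between genes, and not shares of transcripts. The part of mast cell transcripts in the ratios of Ctsg, Srgn and Serpinb1a was not tested.

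Markers of other cell types that such a sort could hold were on the arrays too. Over all probes 2.78% passed as higher and 1.66% as lower, so a count of 0 in lists this short is near those shares. Of 6 macrophage and monocyte markers 0 passed, with a median log2 ratio of 0.19, which was 0.62 with median centring, −0.20 without replicate 2 and 0.0067 without replicate 3. In the last of these, and without the pairing by array, 1 passed as lower, Emr1. The 3 brightest were Cd14 (0.30 ± 0.74), Emr1 (−1.39 ± 1.12) and Csf1r (−1.01 ± 1.35; SD, n = 3), and the 3 others, Cd68, Ly6c1 and Ccr2, had means of 0.16 to 0.61. The dimmer probes of Csf1r differed in sign from its brightest, at 0.12 ± 0.38 and 0.051 ± 0.097. Of 3 basophil markers 0 passed, with a median of 0.89 that ran from 0.54 to 1.05 with a replicate left out and was 1.51 with median centring; 1 passed in that setting, without replicate 1 and without replicate 2. Of 4 eosinophil markers 0 passed, with a median of 0.38, or 0.076 without replicate 1, and 1 passed without replicate 3. Of 4 erythroid markers 0 passed, with a median of 0.17, or −0.34 without replicate 3. Of 3 lymphoid markers 0 passed, with a median of −0.16, which was 0.39 with median centring and 0.038 without replicate 1, and 1 passed as lower without replicate 2. Of 3 early progenitor markers, 1 passed as higher, Ly6a (2.90 ± 2.22), which lost its call without replicate 2, without replicate 3, with the methods' t-test in either form and under loess or the software's signals or ratio. Cd34 had levels of 13.05, 14.18 and 11.57 in WT and 13.83, 10.82 and 13.76 in p85α-/-. Cd34 marks early blood progenitors and is named with its values in view: as for Mpo and Elane, its highest WT and its lowest p85α-/- level were in replicate 2. The rest of its list did not share that order. For Ly6a replicate 2 was the lowest WT culture (9.46) and the highest p85α-/- culture (14.60). For Flt3 the lowest p85α-/- level was in replicate 3. The part of any of these cell types in the values of the granule genes was not tested.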

How the data were processed

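Per the labels and the paper's methods, each array compared cDNA of 1 WT culture (Cy3) with that of 1 p85α-/- culture (Cy5). The authors deposited scanner files made with Agilent Feature Extraction 9.5.1.1 (per the file headers). The deposited intensity values are mean spot signals and median local backgrounds, without normalization, beside processed intensity values corrected for background and dye. From these comes the deposited log10 ratio (red to green). A deposited table of log10 ratios carries the scanner's ratio on 40929, 190 and 226 of 40929 single-spot probes for replicates 1 to 3 (tolerance 1.5e-05), so it was not used as an alternative.

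In R 4.3.3 with limma 3.58.1, normexp with an offset of 50 removed the background, and quantile normalization, which the methods name, was applied to the log2 values of the 6 channels. Spots of a probe were averaged without control and outlier spots. The within-array log2 ratio was fitted with an intercept (lmFit, eBayes, two-sided) over 41157 probes. The code of the fit was checked on simulated ratios with much less spread than those of the granule genes. That check does not show how well the fit finds differences in these data. The brightest probe stood for a gene. Named were all members, list genes past 1.5-fold and an unadjusted p under 0.05 or else the 3 brightest (of marker lists, up to 3), and the 5 genes most alike each group. From the basophil, eosinophil, erythroid and lymphoid lists none was named. Csf3r, Slpi, Pglyrp1, Cd63, Ms4a2, Mcpt4, Cd34, Flt3, Cd68, Ly6c1, Ccr2 and a probe of the myeloperoxidase gene were named outside this rule, after their values were seen. Members and lists were chosen with earlier results of these data known. Accessions matched RefSeq for 22943 probes (55.7%), and Prss57, Cebpe and Ly6g had no tested probe by name or accession. Only 3 arrays limit the precision.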

Additional observations from a re-analysis of the deposited data

How the results depend on the processing

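All settings were planned, except that those for the wider gene lists were added after seeing the data. By each of 13 alternatives that gave a count over probes, 0 probes had an adjusted p under 0.05. The number of probes past both criteria was 1829, but 1125 with the methods' t-test, 819 with its paired form, and 1555 to 3165 when a replicate was dropped (3165 without replicate 2). Of the granule genes, 3 passed, against 1 (Ctsg) by either t-test and by limma without the pairing by array, which has no replicate block and called 1809 probes. With 1 replicate left out 1 to 6 passed, the highest without replicate 2 (Mpo, Elane, Ctsg, Camp, S100a8 and S100a9). The sign changed with median centring for Ngp (0.023) and Lcn2 (−0.021). With 1 replicate left out, Mpo ran from −0.24 to 4.15, Prtn3 from −0.98 to 0.022 and Lcn2 from −0.049 to 0.88. The channels of an array deviated from their genotype means with correlations over probes of −0.057 to 0.064, and the pairing rests on their hybridization together. The lowest adjusted p of a granule gene in any alternative was 0.368, for Ctsg with median centring. Averaging all probes of a gene gave no count over probes, and 3 of the granule genes passed. Dim WT signal at Lcn2 and S100a8 limits their ratios. For settings other than a dropped replicate the cause was not tested. The deposited table of ratios was not run.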

Other observations

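A probe outside the rule on gene names, listed as X15378, is described on the array as mouse myeloperoxidase gene sequence and is placed on chromosome 11 at 87867198 to 87867257 in the annotation of the array, which names no build, against 87873508 to 87874283 for the Mpo probe. The choice of this probe was made with its values in view. Its level was 12.30, 10.11 and 10.73 in WT and 9.53, 10.25 and 9.48 in p85α-/-. Its log2 ratio had the opposite sign to that of the Mpo probe on every array, averaging −1.30 ± 1.46 (SD, n = 3, adjusted p = 0.908 by limma's test).

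The genes most like each group over the 6 channels were found among 33624 probes measured well above background in 3 or more channels. For the mean of the 4 primary genes these were Eif2b2, Golga4, Pcdh15, Rab28 and Myct1, with Pearson's r between 0.990 and 0.993. For the mean of the later genes except Lcn2 they were Tada1, Slc6a9, Cdca3, Supt5 and 4930465M20Rik, with r between 0.987 and 0.991. An r above 0.95 was reached by 97 and 54 probes. The 6 channels are 3 pairs on shared arrays, and these values are a description only.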
